A study of Mus musculus with 2 samples.

Results

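The genes described here are 10 genes of antioxidant defence that are grouped around the transcription factor NRF2 and the peptide glutathione: Srxn1, Gclc, Gclm, Txnrd1, Nqo1, Slc7a11, Hmox1, G6pdx, Prdx1 and Aox1. They were taken by symbol from the 32287 features of 2 droplet libraries of mouse liver, and all 10 symbols were present in both. They were chosen by the ratios between these libraries, which were already known, so the levels, ratios and shares below are descriptions and none is tested. One library came from liver of wild-type C57BL/6J mice given AAV-scramble, an adeno-associated virus with a scrambled hairpin, and the other from liver of mice of the same strain given AAV-shBicd2, a virus with a hairpin against Bicd2. Virus was given at 4 weeks of age. Both groups then received concanavalin A, a lectin that causes immune-mediated liver injury, at 15 mg/kg by the intravenous route 3 weeks later, and liver was taken at 6 hours. No animal without the lectin or without virus was analysed here. The number of mice per library, the hairpin's promoter and the cells that the virus reached are not given in the sources used here.

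NRF2, encoded by Nfe2l2, is held at a low level by KEAP1, which delivers it to the CUL3 ubiquitin ligase. When reactive compounds modify KEAP1, NRF2 accumulates, pairs with small MAF proteins and binds antioxidant response elements in front of its target genes, where BACH1 competes with it. The targets make glutathione, reduce thioredoxin and oxidised proteins, supply NADPH and break down haem, and in hepatocytes they are known for protection against drug and inflammatory injury.

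Promoter windows in RefSeq for GRCm38.p6, from 250 bases before to 50 bases after a transcription start, were present for 8 of the 10 genes, and those of Gclc and Hmox1 were not among them. Of these, 4 windows are printed because their genes had high ratios between the libraries (Srxn1, Gclm, Aox1) or 2 kinds of match (Prdx1). Capitals mark each match, on either strand, to the response element core TGACNNNGC or to its variant TGAGNNNGC, which was added after the sequences were seen.
Srxn1, chr2:152105274-152105573, plus strand: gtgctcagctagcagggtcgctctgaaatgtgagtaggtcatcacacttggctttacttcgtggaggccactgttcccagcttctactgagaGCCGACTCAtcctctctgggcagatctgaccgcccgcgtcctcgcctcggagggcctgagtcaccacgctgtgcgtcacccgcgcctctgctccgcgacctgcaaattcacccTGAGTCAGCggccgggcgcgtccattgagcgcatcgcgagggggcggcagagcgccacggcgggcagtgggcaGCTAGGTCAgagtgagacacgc
Gclm, chr3:122245307-122245606, plus strand: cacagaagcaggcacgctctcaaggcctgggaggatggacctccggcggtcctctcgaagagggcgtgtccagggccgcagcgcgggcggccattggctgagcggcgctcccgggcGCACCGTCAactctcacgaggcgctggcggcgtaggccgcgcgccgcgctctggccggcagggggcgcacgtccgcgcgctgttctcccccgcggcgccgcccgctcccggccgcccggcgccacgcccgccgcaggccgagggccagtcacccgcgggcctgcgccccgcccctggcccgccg
Prdx1, chr4:116685349-116685648, plus strand: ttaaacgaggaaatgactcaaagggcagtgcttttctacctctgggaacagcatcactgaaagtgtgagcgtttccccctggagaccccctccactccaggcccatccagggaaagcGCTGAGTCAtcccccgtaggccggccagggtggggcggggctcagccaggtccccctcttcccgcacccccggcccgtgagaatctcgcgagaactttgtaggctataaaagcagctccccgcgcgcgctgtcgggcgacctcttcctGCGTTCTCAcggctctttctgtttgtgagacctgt
Aox1, chr1:58029719-58030018, plus strand: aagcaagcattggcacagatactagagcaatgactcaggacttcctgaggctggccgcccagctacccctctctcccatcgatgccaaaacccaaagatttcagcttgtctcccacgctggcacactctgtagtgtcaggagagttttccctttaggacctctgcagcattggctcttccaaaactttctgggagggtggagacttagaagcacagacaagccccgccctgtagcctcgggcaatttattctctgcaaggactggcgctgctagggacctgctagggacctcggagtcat
Srxn1 held 1 match to TGACNNNGC and 2 to TGAGNNNGC. One of the latter, TGAGTCAGC at position -45 from the start, overlapped TGANTCA, the letters of an AP-1 site. Gclm held 1 match to TGACNNNGC at position -134. Prdx1 held 1 at position -133, which overlapped TGANTCA, and 1 match to TGAGNNNGC. The Aox1 window held neither core, and 1 TGANTCA. Of the windows not printed, G6pdx and 1 of 3 Txnrd1 windows held TGACNNNGC, Slc7a11 held TGAGNNNGC, and Nqo1 held neither. Among all 32851 promoter windows, 12.4% held TGACNNNGC, 17.6% held TGAGNNNGC and 7.81% held TGANTCA, so such matches were not rare, and a match is a description of letters only.

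The libraries held 2805 (scramble) and 3038 (shBicd2) deposited barcodes with 5086306 and 5624055 unique molecular identifiers (UMIs, 1 per captured RNA molecule), and 3 barcode sequences occurred in both. Most kept barcodes, 2117 (77.6%) and 2386 (81.1%), fell into 7 clusters called the main population here. In these clusters no list of class markers, the hepatocyte list included, met the naming rule given below, so the main population is a remainder. The rule compares a cluster with all other kept barcodes, most of which are of the main population. Its failure there therefore does not show that these barcodes are not hepatocytes. The median depth of its barcodes was 1665 and 1685 UMIs, and their median mitochondrial share was 0.151% and 0.290%. Malat1 had 151125 UMIs in scramble and 127633 in shBicd2 in the main population (ratio 0.727, interval 0.722 to 0.732). Whether the barcodes of the main population held whole cells or nuclei was not tested. All 12 hepatocyte markers were detected there, but summed to only 1.19% and 1.55% of UMIs, close to the 0.994% and 1.30% in B cell-like barcodes. Bicd2 counts did not fall in the main population, with 59 UMIs in scramble and 99 in shBicd2 (ratio 1.44, interval 1.04 to 2.03). Over all kept barcodes the ratio was 1.21 (0.896 to 1.63). In non-hepatocyte barcodes outside the monocyte/macrophage-like class it was 0.220 (0.0403 to 0.802), with 13 and 3 UMIs. The libraries are therefore named by their labels only. EGFP, which both matrices list, had 315 and 4677 UMIs in the main population (ratio 12.8). With 1 library per group, animal, library and treatment cannot be told apart, no test between the groups was possible, and all intervals are exact 95% intervals that cover counting error only.

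In the main population, 7 of the 10 genes had at least 50 UMIs over both libraries. All 7 were higher in the library labelled shBicd2, and 4 of them (Aox1, Srxn1, Gclm and Gclc) by 1.5-fold or more, as they were also by 2-fold. None was lower. Among all 9306 genes with as many UMIs, 5483 were higher in shBicd2. By 1.5-fold or more, 22.7% were higher and 10.4% were lower, and 9.54% were higher by 2-fold or more. Since these ratios served to choose the genes, nothing is read from that difference. Levels are given in CPM, counts per 1000000 UMIs of the population.

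The 2 subunits of glutamate-cysteine ligase, which makes the first and rate-limiting step of glutathione synthesis, were both higher. Gclc, the catalytic subunit (chr9:77754535-77794485, plus strand, GENCODE annotation of GRCm38), had 476 UMIs or 116 CPM (interval 106 to 127) in scramble and 1765 UMIs or 371 CPM (354 to 389) in shBicd2, a ratio of 3.19 (2.88 to 3.54). Gclm, the modifier subunit (chr3:122245557-122270732), had 43 UMIs or 10.5 CPM (7.60 to 14.1) and 199 UMIs or 41.8 CPM (36.2 to 48.0), a ratio of 3.98 (2.85 to 5.68). For both subunits the intervals of the libraries were far apart. Slc7a11, the cystine importer that supplies the cysteine (chr3:49892526-50443614, minus strand), had only 7 and 28 UMIs, a ratio of 3.44 (1.47 to 9.34).

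The thioredoxin arm had 1 steep and 2 small ratios. Srxn1, sulfiredoxin, which repairs over-oxidised peroxiredoxins (chr2:152105516-152111376), had 34 UMIs or 8.30 CPM (5.75 to 11.6) in scramble and 335 UMIs or 70.4 CPM (63.0 to 78.3) in shBicd2, a ratio of 8.48 (5.95 to 12.5). In scramble no barcode held more than 1 Srxn1 UMI, while in shBicd2 51 of the 251 barcodes with Srxn1 held 2 or more and 1 held 8. Its substrate Prdx1, a peroxiredoxin that reduces hydrogen peroxide (chr4:116685544-116700822), had 112 CPM (102 to 123) and 163 CPM (152 to 175), a ratio of 1.46 (1.30 to 1.64). Txnrd1, the cytosolic thioredoxin reductase (chr10:82833951-82897712), had 114 CPM (104 to 125) and 160 CPM (149 to 172), a ratio of 1.40 (1.24 to 1.57). Both were above 1 beyond counting error, and both intervals held 1.5. Among barcodes without EGFP they stood at 1.55 for Prdx1 and 1.68 for Txnrd1, past 1.5-fold, and with barcodes thinned to 1000 UMIs Txnrd1 was at 1.66. The count of genes at 1.5-fold or more was then 6 and 5 of 7.

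Hmox1, haem oxygenase 1, which opens the haem ring (chr8:75093621-75100589), had the smallest ratio of the 7. It had 2194 UMIs or 536 CPM (513 to 558) in scramble and 3243 UMIs or 681 CPM (658 to 705) in shBicd2, a ratio of 1.27 (1.20 to 1.34). The median log2 ratio of all 9306 genes was itself 0.12, and with libraries scaled by the median of ratios the Hmox1 ratio was 1.17.

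Aox1, aldehyde oxidase 1, which oxidises aldehydes and many drugs (chr1:58029931-58106413), had the largest ratio: 26 UMIs or 6.35 CPM (4.15 to 9.30) in scramble and 327 UMIs or 68.7 CPM (61.5 to 76.6) in shBicd2, a ratio of 10.8 (7.25 to 16.8). Aox3, its neighbouring paralog on the same strand (chr1:58113130-58200698), went the other way, with 60 and 26 UMIs and a ratio of 0.373 (0.226 to 0.600). Reads that the close paralogs share could be assigned to either gene, which was not tested. The remaining genes were near or below detection. Nqo1, the NADPH quinone reductase often read as the marker of NRF2 activity (chr8:107388225-107403206, minus strand), had 0 UMIs in scramble, which allows up to 0.732 CPM, and 2 in shBicd2. G6pdx, glucose-6-phosphate dehydrogenase, which makes NADPH (chrX:74409483-74429194, minus strand), had 2 and 6 UMIs, a ratio of 2.58 (0.462 to 26.2). No difference was detectable for these at this depth.

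**Figure D1:**
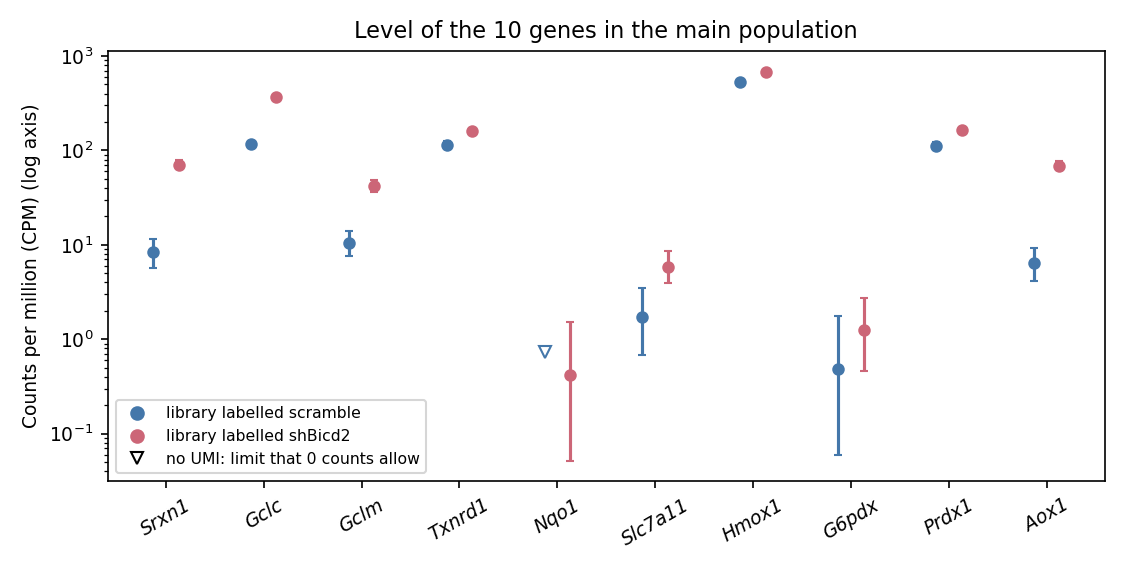
Level of each of the 10 genes in the main population, in CPM on a log axis, with exact 95% Poisson intervals. Points are libraries labelled scramble (blue) and shBicd2 (red), and the open triangle is the limit that 0 UMIs allow. Aox1 (6.35 and 68.7) and Srxn1 (8.30 and 70.4) are the farthest apart, and Hmox1 (536 and 681) is the closest of the 7 genes with at least 50 UMIs.

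Several ratios moved with the way barcodes were combined. With each barcode thinned to 1000 UMIs the ratio of Srxn1 was 13.7, and it was 3.72 with the clusters that hold 20 or more barcodes of each library weighed equally. That weighting gave 2.63 for Txnrd1 and 0.926 for Prdx1. It rests on few UMIs of one library and is given without an interval. In the cluster led by G0s2, 26 scramble barcodes held 1 Srxn1, 3 Txnrd1 and 11 Prdx1 UMIs. Subtracting the profile of B cell-like barcodes of the same library, taken as RNA not from the barcode's own cell, left a value for only 2 of the 7 genes, 0.872 for Txnrd1 and 1.0001 for Hmox1.

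Free RNA, which leaks from damaged cells and enters droplets of every cell type, bears on these levels directly. Non-hepatocyte barcodes outside the monocyte/macrophage-like class, B cell-like ones included (222 in scramble, 229 in shBicd2), held Gclc at 125 and 340 CPM, Srxn1 at 17.8 and 61.2 CPM and Aox1 at 14.2 and 54.4 CPM. In shBicd2 these were near the levels of the main population. In scramble Srxn1 and Aox1 rested on 5 and 4 UMIs. Their intervals, 5.78 to 41.5 and 3.88 to 36.4 CPM, held the 8.30 and 6.35 CPM of the main population. The ratios there were 2.73 (1.84 to 4.13) for Gclc, 3.44 (1.23 to 11.8) for Srxn1 and 3.82 (1.23 to 15.7) for Aox1. Among them, B cell-like barcodes (87 and 43) held Gclc at 126 and 668 CPM, and Srxn1 at 3 and 0 UMIs. The difference between the libraries was thus present in barcodes of other classes as well, and the part of free RNA in the pooled values was not separated from expression.

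Several of the genes differed several-fold among clusters of one library. The clusters were built with these genes among all genes considered, and Srxn1 and Aox1 lead clusters, so this is a description, and the part of free RNA in it was not tested. In the library labelled shBicd2, Gclc had 764 CPM (702 to 830) in the cluster led by Fmo1, Ndrg1, Srxn1 and Nos2 (394 barcodes) and 450 CPM (422 to 479) in the one led by G0s2 and holding Aox1 among its leading genes (1218 barcodes). It had 94.0 CPM (57.4 to 145) in the cluster led by the interferon-induced genes Ifit2, Ifit1 and Rsad2 (99 barcodes). It also had 93.9 CPM (79.0 to 111) in the cluster led by Hspb1, EGFP and histone genes (554 barcodes). The last 2 clusters were thus no higher than the whole scramble library at 116 CPM.

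Over 3 of these clusters Gclm, Txnrd1 and Srxn1 had the order of Gclc. From the Hspb1- and EGFP-led to the G0s2-led and the Fmo1-led cluster of the library labelled shBicd2, Gclm had 17.6, 47.3 and 83.2 CPM. Txnrd1 had 43.9, 202 and 260 CPM over the same clusters, but in the Ifit2-led cluster it had 113 CPM (72.3 to 168), above the 43.9 CPM (33.9 to 56.0) of the Hspb1- and EGFP-led one, while Gclc had 94.0 and 93.9 CPM in them. Srxn1 had 19.6, 54.7 and 243 CPM, the last being a cluster it helped define. Prdx1 varied less, with 149, 167 and 200 CPM.

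Aox1 and Hmox1 each had another distribution. Aox1 had 119 CPM (105 to 135) in the G0s2-led cluster and 180 CPM (116 to 265) in a cluster of 68 barcodes led by the imprinted RNAs Rian and Meg3, against 39.5 CPM (26.5 to 56.8) in the Fmo1-led cluster and 7.43 CPM (3.71 to 13.3) in the Hspb1- and EGFP-led one. Hmox1 was high where glutathione synthesis genes were low. It had 861 CPM (740 to 995) in the Ifit2-led cluster and 923 CPM (874 to 973) in the Hspb1- and EGFP-led cluster, against 374 CPM (349 to 401) in the G0s2-led and 216 CPM (145 to 308) in the Rian-led cluster. Only the Fmo1-led cluster, of the 5 with at least 50 barcodes of this library, had both high Hmox1 (1141 CPM, 1065 to 1221) and high Gclc.

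The library labelled scramble had the same opposition at lower levels of Gclc. In its Ifit2-led cluster (706 barcodes) Hmox1 had 978 CPM (931 to 1028) and Gclc 73.5 CPM (60.9 to 88.0). In the cluster led by Cyp21a1 and Sds (990 barcodes) Hmox1 had 186 CPM (166 to 209) and Gclc 126 CPM (109 to 144). In the cluster led by Slc1a2 and holding Glul, a gene of pericentral hepatocytes (352 barcodes), Hmox1 had 258 CPM (223 to 297) and Gclc 169 CPM (142 to 201). The intervals of the Ifit2-led cluster did not overlap those of the other 2 clusters for either gene.

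**Figure D2:**
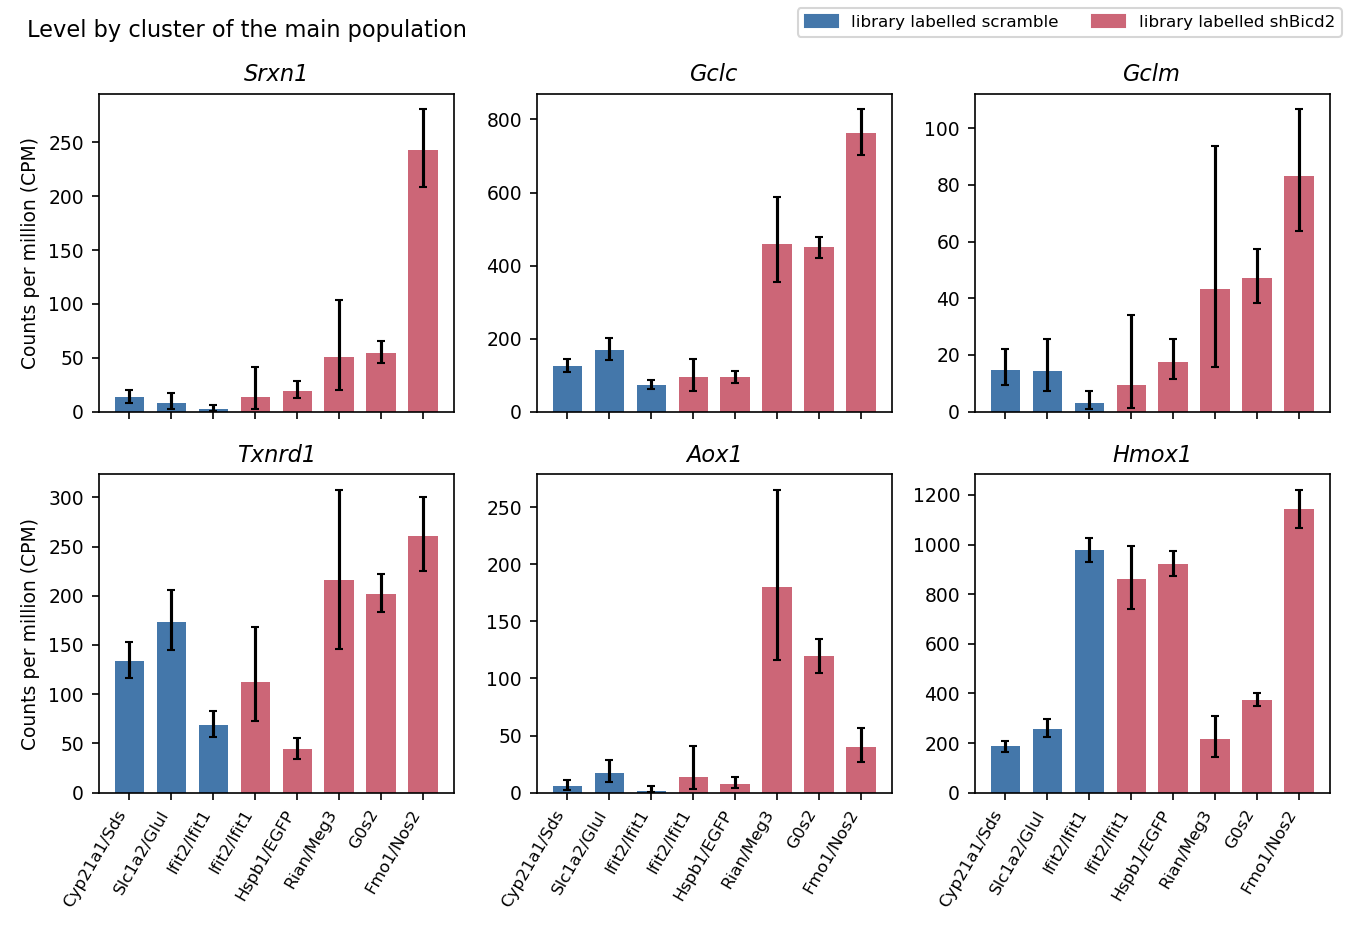
Level of 6 genes by cluster of the main population, in CPM, for each cluster with at least 50 barcodes of the library (blue, labelled scramble; red, labelled shBicd2). Bars start at 0 and lines are exact 95% Poisson intervals. Within each library, Gclc, Gclm and Txnrd1 are lowest in the Ifit2-led and Hspb1- and EGFP-led clusters, where Hmox1 stands between 861 and 978.

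Few clusters allow the libraries to be set side by side, because 6 of the 7 held under 50 barcodes of one library. In the Ifit2-led cluster, with 706 and 99 barcodes, the ratio of shBicd2 over scramble was 1.28 (0.754 to 2.06) for Gclc, 0.880 (0.751 to 1.03) for Hmox1, 1.14 (0.722 to 1.72) for Prdx1 and 1.65 (1.01 to 2.58) for Txnrd1. The rarer genes had wide intervals there, with 7.61 (1.02 to 56.8) for Aox1, 5.71 (0.836 to 33.7) for Srxn1 and 3.04 (0.290 to 18.6) for Gclm. In the Cyp21a1-led cluster, with 990 and 46 barcodes, Hmox1 was at 2.80 (1.79 to 4.22), Txnrd1 at 2.03 (1.06 to 3.54), Aox1 at 10.9 (1.90 to 43.8) and Gclc at 1.83 (0.898 to 3.35). Hmox1 thus had a ratio above 1 in one of these clusters and an interval that held 1 in the other. In the G0s2-led cluster the 26 scramble barcodes held Gclc at 403 CPM against 450 CPM (ratio 1.12, 0.674 to 2.003). In the Fmo1-led cluster the 21 scramble barcodes held it at 91.8 CPM against 764 CPM (ratio 8.32, 3.23 to 30.6). The ratio of Gclc within clusters thus ranged from near 1 to several-fold, and these 2 extremes rest on 15 and 4 scramble UMIs. Since most clusters held few barcodes of one library, cluster make-up and library cannot be told apart.

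Levels of several of the genes also differed between barcodes with and without EGFP. In barcodes thinned to 1000 UMIs, Gclc in EGFP-bearing over EGFP-free barcodes had a ratio of 0.372 (0.100 to 0.969) in scramble and 0.352 (0.275 to 0.445) in shBicd2. In shBicd2 the ratio was 0.526 (0.325 to 0.818) for Srxn1, 0.453 (0.224 to 0.838) for Gclm, 0.505 (0.362 to 0.692) for Txnrd1 and 0.381 (0.201 to 0.668) for Aox1. Hmox1 was higher in EGFP-bearing barcodes of scramble, at 1.997 (1.59 to 2.48), and in shBicd2 its interval held 1, at 1.08 (0.952 to 1.22). Among barcodes with no EGFP UMI, the ratio between the libraries was 3.87 (3.48 to 4.32) for Gclc, 10.3 (7.06 to 15.4) for Srxn1 and 13.1 (8.71 to 20.7) for Aox1, as large as in all barcodes or larger.

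Shares of barcodes with a UMI were compared at 1 depth, with each barcode thinned to 1000 UMIs (1676 and 1876 barcodes, 441 and 510 shallower ones left out). Srxn1 was detected in 0.597% (0.286 to 1.09) of scramble and 6.77% (5.67 to 8.002) of shBicd2 barcodes, and without thinning in 1.61% and 10.5%. Gclc was detected in 9.73% and 21.1%, without thinning in 16.5% and 30.9%. Aox1 was detected in 0.537% and 5.70%, Gclm in 1.01% and 4.53%, Txnrd1 in 9.25% and 14.1%, Prdx1 in 11.1% and 15.1%, and Hmox1 in 30.1% and 39.8%. All 7 shares were higher in shBicd2, and their intervals did not overlap between the libraries. The share of all genes with such a difference was not computed. The genes were chosen by the ratios between these libraries, so nothing is read from that count.

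The same shares in other cell types are given for comparison. Among 89 thinned barcodes of those non-hepatocyte classes of shBicd2, some of which can express these genes themselves, 7.87% (3.22 to 15.5) held Srxn1 and 25.8% (17.1 to 36.2) Gclc. Aox1 was held by 5.62% (1.85 to 12.6), Gclm by 6.74% (2.51 to 14.1), Txnrd1 by 10.1% (4.73 to 18.3) and Prdx1 by 22.5% (14.3 to 32.6). All 6 intervals held the share of the main population. Hmox1, at 16.9% (9.75 to 26.3), was lower there than the 39.8% of the main population. The pooled shares of the other 6 genes are therefore not read as hepatocyte expression above free RNA. These barcodes are not a floor for every cluster. In shBicd2 they held Gclc at 340 CPM, against 93.9 CPM in the Hspb1- and EGFP-led cluster and 764 CPM in the Fmo1-led one. The part of free RNA in the shares was not tested.

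Detection of several of the genes in the same barcode was more frequent in the library labelled shBicd2, where the single-gene shares above were higher too. The share that these single-gene shares alone would give was not computed. Since the genes were chosen by their ratios, nothing is read from the difference between the libraries. At 1000 UMIs, 10.7% (9.30 to 12.3) of scramble and 28.1% (26.1 to 30.2) of shBicd2 barcodes held at least 2 of the 10 genes. At least 3 were held by 0.895% (0.502 to 1.47) and 8.05% (6.86 to 9.37). At least 4 were held by 1 and 44 barcodes, and at least 5 by 0 and 16. Shares for at least 3 were similar in the non-hepatocyte barcodes above, at 1.08% (0.0272 to 5.85) in scramble and 7.87% (3.22 to 15.5) in shBicd2. At least 2 were held there by 9.68% (4.52 to 17.6) and 18.0% (10.6 to 27.5), the latter under the 28.1% of the main population with intervals that overlap. Without Hmox1, the gene with most UMIs, the shares with at least 2 were 3.58% and 15.1%.

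**Figure D3:**
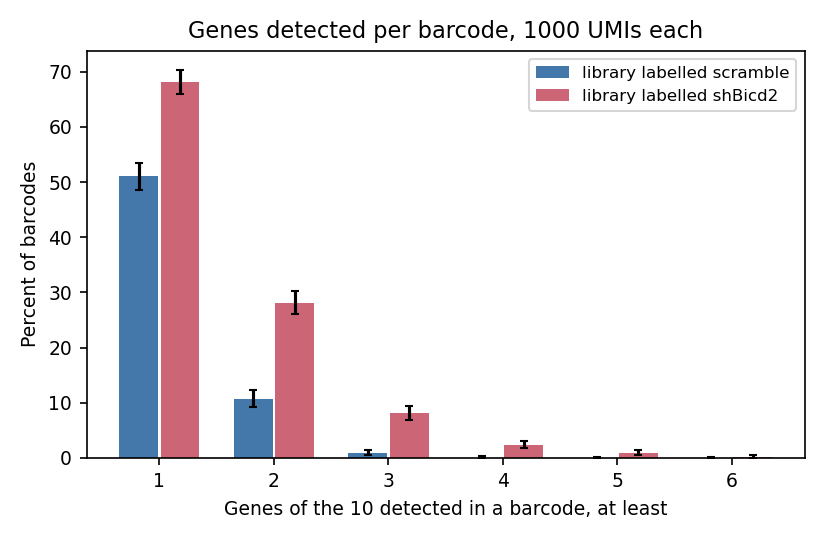
Percent of main-population barcodes, each thinned to 1000 UMIs, that held at least the given number of the 10 genes, in the libraries labelled scramble (blue) and shBicd2 (red). Lines are exact 95% binomial intervals. The shares for at least 2 genes are 10.7% and 28.1%, and for at least 3 genes 0.895% and 8.05%. The shares that single-gene detection alone would give were not computed.

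Within the library labelled shBicd2, most of the genes were more frequent in barcodes that held another of them than in barcodes that did not. Of the 21 pairs among the 7 genes with at least 50 UMIs, 18 had a higher share of the partner among barcodes with the first gene than among those without it, and in 9 of them the intervals did not overlap. Of the 1876 barcodes, the 127 with Srxn1 held Gclc in 37.0% (28.6 to 46.0), against 19.95% of those without Srxn1. The 107 with Aox1 held Gclc in 40.2% (30.8 to 50.1), also against 19.95%. The 396 with Gclc held Txnrd1 in 23.0% (18.9 to 27.4) against 11.8%. These barcodes share a library and a depth and were pooled over all clusters, and co-detection within clusters was not computed. Nor was the same count over other pairs of genes, so it is not read as a trait of these genes.

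Hmox1 and Prdx1 stood outside that group where Gclc and Aox1 are concerned. In shBicd2, barcodes with Gclc held Prdx1 in 14.9% (11.5 to 18.8) against 15.1% of those without Gclc. Barcodes with Aox1 held Prdx1 in 14.0% (8.06 to 22.1), against 15.1% without Aox1. Prdx1 was more frequent with the other genes of the group, though with intervals that overlapped. It was held by 22.8% of barcodes with Srxn1 against 14.5% without. The shares were 21.2% against 14.8% for Gclm and 19.6% against 14.3% for Txnrd1. In shBicd2 Gclc was present in 21.2% of barcodes with Hmox1 and in 21.1% of those without. Barcodes with Aox1 held Hmox1 in 31.8% (23.1 to 41.5), against 40.2% without Aox1. Srxn1 differed from this, since barcodes with it held Hmox1 in 53.5% (44.5 to 62.4) against 38.8%. In scramble, barcodes with Hmox1 held Gclc in 7.13% (5.04 to 9.73) against 10.8%. None of the 21 scramble pairs had intervals apart, but a median of only 2 barcodes held both genes there, against 34 in shBicd2, so the libraries were not compared on this measure.

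**Figure D4:**
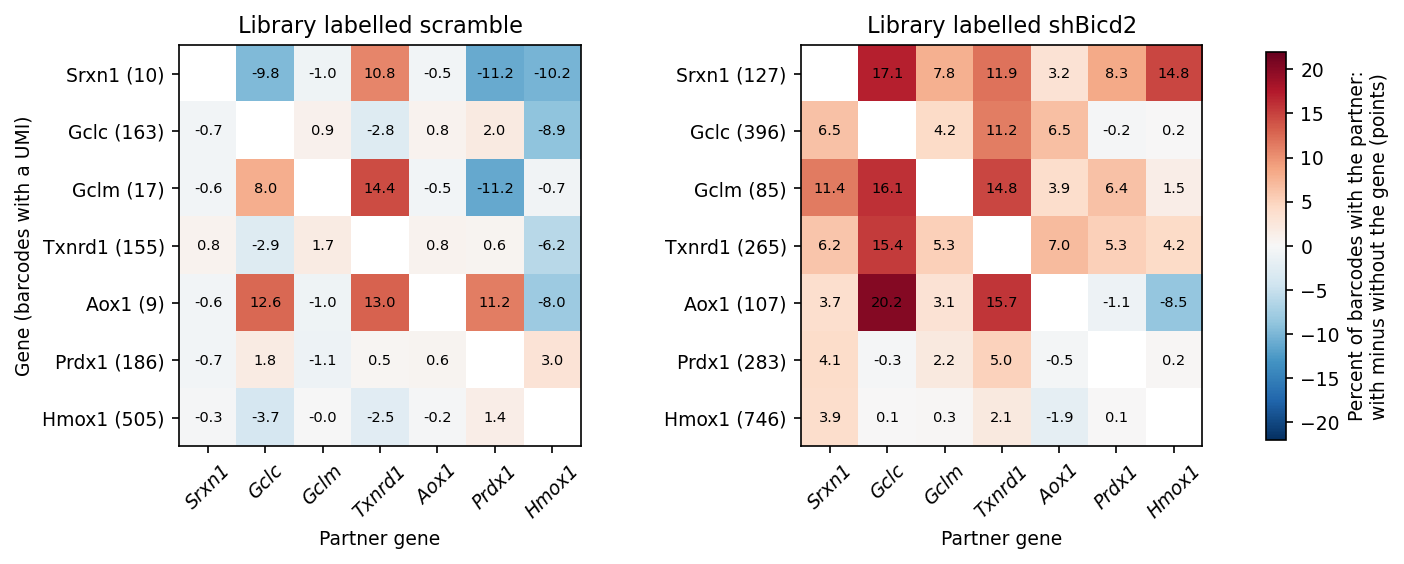
Percent of barcodes with the partner gene (column) among barcodes with minus without the gene of the row, in percentage points, for the 7 genes with at least 50 UMIs in barcodes thinned to 1000 UMIs. Numbers in brackets are barcodes with the row's gene. In the library labelled shBicd2 the rows Srxn1, Gclm, Txnrd1 and Aox1 are highest for Gclc, and Aox1 is lower for Hmox1. In scramble the rows of Srxn1, Gclm and Aox1 rest on 10, 17 and 9 barcodes.

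Other classes of barcodes gave other patterns. The hepatocyte-like cluster, which is led by mitochondrial transcripts (312 and 248 barcodes), had 4 of the 10 genes with at least 50 UMIs. Of these, 2 were higher by 1.5-fold or more and none was lower, where 23.1% of the 2064 genes with as many UMIs were higher and 36.1% were lower. Prdx1 had 287 CPM (239 to 343) in scramble and 788 CPM (690 to 896) in shBicd2, a ratio of 2.74 (2.20 to 3.44). Gclc had 78.8 and 186 CPM, a ratio of 2.36 (1.51 to 3.74), and Hmox1 had 419 and 409 CPM, a ratio of 0.976 (0.769 to 1.24).

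In monocyte/macrophage-like barcodes (78 in each library) 3 of the genes had lower levels under the shBicd2 label. With a minimum of 10 UMIs for this small class, 5 of the 10 genes had enough, 3 were lower by 1.5-fold or more and none was higher, where 24.2% of 3220 genes were lower and 26.9% were higher. Hmox1 had 1646 CPM (1381 to 1947) in scramble and 791 CPM (594 to 1032) in shBicd2, a ratio of 0.480 (0.344 to 0.663). Prdx1 had 993 and 439 CPM, a ratio of 0.443 (0.281 to 0.680), and Txnrd1 had 496 and 176 CPM, a ratio of 0.354 (0.169 to 0.687). In scramble these 3 levels stood above those of the other non-hepatocyte barcodes, which were 256, 67.6 and 110 CPM.

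The make-up of that class differed between the libraries. It joined a cluster led by Tnip3 and Spic, a transcription factor of tissue macrophages (72 and 45 barcodes), with a cluster that held Ccr2, the chemokine receptor of recruited monocytes, among its leading genes (6 and 33 barcodes). Without the second cluster the ratios were 0.710 (0.497 to 0.999) for Hmox1, 0.700 (0.435 to 1.09) for Prdx1 and 0.563 (0.261 to 1.12) for Txnrd1. Of these, 2 intervals then held 1. Gclc, at 1.41 (0.716 to 2.81) in the whole class, was above 1.5-fold there in the opposite direction, with 18 UMIs in each library, 229 and 482 CPM and a ratio of 2.10 (1.03 to 4.28). Gclm, with 5 and 3 UMIs, was at 1.26 (0.196 to 6.48).

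**Figure D5:**
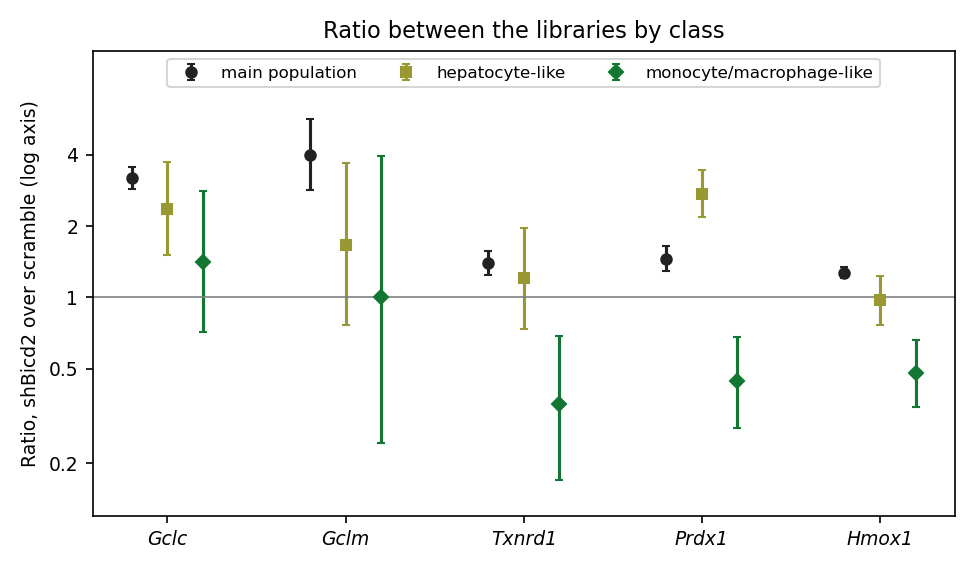
Ratio of CPM, library labelled shBicd2 over scramble, on a log axis, for 5 genes in the main population, the hepatocyte-like cluster and monocyte/macrophage-like barcodes. Lines are exact 95% intervals for counting error and the grey line marks a ratio of 1. Txnrd1, Prdx1 and Hmox1 lie between 0.354 and 0.480 in monocyte/macrophage-like barcodes and between 1.27 and 1.46 in the main population.

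The wider pathway was read from fixed lists in the main population. Of 78 listed genes other than the 10, each with at least 50 UMIs, 31 were higher by 1.5-fold or more and 4 were lower. Of all 9306 genes, 22.7% were higher and 10.4% lower. The median log2 ratio was 0.40 for the listed genes and 0.12 for all genes. The lists, like the 10 genes, were chosen with results of these data known, so these counts are no independent support, and short lists with a share near 22.7% show nothing beyond the background.

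Of the 10 genes that control NRF2, 2 were higher and none was lower by 1.5-fold, a share higher near the 22.7% of all genes. Nfe2l2, the gene of NRF2 itself, had 176 and 375 CPM, a ratio of 2.13 (1.95 to 2.32). Sqstm1, a KEAP1-binding autophagy receptor, had a ratio of 1.69 (1.58 to 1.81), and the partner Mafg 1.39 (1.29 to 1.49). The repressor Bach1 was at 0.711 (0.645 to 0.783) and Rbx1, a subunit of the CUL3 ligase, at 0.872.

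In glutathione synthesis, recycling and supply, 7 of 11 genes were higher and 2 lower, with Gclc and Gclm among the former. Cbs, which starts the route from homocysteine to cysteine, had a ratio of 1.58 (1.37 to 1.82). Oplah, which recovers glutamate from 5-oxoproline, had 1.37 (1.26 to 1.497). The lower genes were Chac1, which degrades glutathione, at 0.456 (0.295 to 0.692), and the glycine carrier Slc6a9 at 0.637 (0.549 to 0.739).

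All 8 measured glutathione transferases, which couple glutathione to reactive compounds, had a ratio above 1, 6 of them at 1.5-fold or more, and their median log2 ratio was 1.16. Of all 9306 genes, 5483 were higher, and 22.7% were higher by 1.5-fold or more. Gstt2 had 12.7 and 62.0 CPM, a ratio of 4.88 (3.63 to 6.69), Gstm1 3.71 (2.89 to 4.82), Gstz1 3.57 (3.11 to 4.11) and Gstp1 1.81 (1.63 to 2.02). Gstt1 and Mgst1 were both at 1.22. Members of the Gstm, Gstp and Gstt families are close copies, and reads they share are uncertain. Of the peroxidases, Gpx1 had a ratio of 1.75 (1.68 to 1.83) and Gpx4 of 1.19 (1.01 to 1.40).

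The thioredoxin and peroxiredoxin list had 5 of 16 genes higher, Srxn1 among them, and none lower. Glutaredoxin, Glrx, had a ratio of 1.98 (1.49 to 2.65) and Prdx6 1.35 (1.21 to 1.51), while mitochondrial Txn2 was at 0.836 and the methionine sulfoxide reductase Msra at 0.884. For NADPH supply, 3 of 10 were higher and 1 lower, near the 22.7% and 10.4% of all genes. Pgd, the step of the pentose phosphate pathway after the enzymes of G6pdx and Pgls, had a ratio of 3.50 (2.70 to 4.59) and Tkt 1.84 (1.33 to 2.57), whereas mitochondrial Nnt was at 0.648 (0.461 to 0.907), Idh2 at 0.681 (0.421 to 1.09), Idh1 at 1.39 and H6pd at 1.07.

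Next to Hmox1, the haem and iron list had 4 of 8 genes higher and none lower. Ftl1 and Fth1, the ferritin chains that store the iron freed from haem, had ratios of 2.73 (2.59 to 2.88) and 2.21 (2.06 to 2.37). Blvrb had 24 and 115 UMIs, a ratio of 4.12 (2.64 to 6.70), while Blvra, the main biliverdin reductase, was at 0.714 (0.439 to 1.15) and Fech, which inserts iron into haem, at 0.738 (0.605 to 0.899). Among quinone, aldehyde and efflux genes 4 of 10 were higher, Aox1 among them, and Aox3 was lower. The efflux pump Abcc3 had a ratio of 3.86 (2.76 to 5.51), Osgin1 1.41, Ugdh 1.17, Abcc2 1.13 and Aldh1a1 0.935.

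Superoxide dismutases and catalase were within 1.5-fold in all 4 measured genes, with Cat at 1.21, Sod2 at 0.946, Sod1 at 0.839 and Ccs at 0.835. ATF4 is a stress factor that also drives Slc7a11, and of 7 measured genes of its list 3 were higher and 1 lower. Trib3 had a ratio of 2.69 (1.80 to 4.11), Nupr1 1.78 (1.28 to 2.51) and Ddit3 1.72 (1.53 to 1.94). Atf4 itself was at 1.15, Ddit4 at 1.02 and Chac1 at 0.456.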

How the data were processed

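RNA of mouse liver was measured in 2 droplet libraries made with the 10x 3' kit, 1 per group, per the labels' protocols. The authors deposited raw UMI counts for every gene in each barcode, which were not normalized. Cell Ranger 6.1.2 is named per the file headers, and Cell Ranger 6.0.1, Seurat 4.0.3 and mm10 per the submitters' processing notes. Neither the counting of intron reads nor the tissue dissociation is described there.

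Barcodes were kept from 200 detected genes upward and up to a mitochondrial share of 25%, and the highest Scrublet scores, at 0.8% per 1000 barcodes, were removed as doublets (62 and 73). Both libraries were clustered together without batch correction (scanpy 1.11.5, leidenalg 0.10.2, 2000 variable genes, 30 components, 15 neighbours, resolution 1). Non-hepatocyte clusters were clustered again among themselves, a step chosen after the data were seen because first clusters mixed classes. A class name needed at least 3 markers and 40% of its list raised by 1 log2 unit over all other kept barcodes pooled. It also needed no other class with more markers among the top 10 genes. First-round clusters in which no list met the marker rule were called the main population. The classes are rebuilt names, not the authors'.

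UMIs were summed per library and class and given as CPM with exact Poisson intervals, ratios with exact conditional binomial intervals, and shares with Clopper-Pearson intervals (95%, scipy 1.17.1). The limit for a count of 0 is 3 counts. A list's median log2 ratio adds 0.5 to each count. The interval, thinning and ratio steps were tested on simulated data. The members and lists were chosen with earlier results of these data known. Named in the text are the 10 members, with Bicd2, EGFP, Aox3 and Malat1. Also named, among genes with at least 50 UMIs, are up to 3 per list with the most UMIs. So are the 2 with the highest and the 2 with the lowest ratio per list. Alternatives tried were all kept barcodes, other filters, depths, scalings, weights and clusterings, free RNA subtraction, EGFP-free barcodes and a fold of 2. The minimum of 10 UMIs in the monocyte/macrophage-like class was chosen for its size. Promoters are RefSeq windows of GRCm38.p6, the assembly mm10 names, searched on both strands.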

Additional observations from a re-analysis of the deposited data

Results flagged for a closer look

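The ratio of shBicd2 over scramble had opposite directions in 2 classes of barcodes for 3 genes. Txnrd1 was at 0.354 in monocyte/macrophage-like barcodes and at 1.40 in the main population, and Hmox1 was at 0.480 and 1.27. Prdx1 was at 0.443 in monocyte/macrophage-like barcodes, against 1.46 in the main population and 2.74 in the hepatocyte-like cluster. With 1 library per group these differences were not tested. The ratios without the cluster that holds Ccr2 were 0.563 for Txnrd1, 0.710 for Hmox1 and 0.700 for Prdx1.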

How the results depend on the processing

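No paired analysis was possible because each group has 1 library. No result here has a replicate, so the values show only how the summaries depend on the processing. Of the alternative values for the ratios of single genes, 77 moved by less than their counting interval, 10 moved by more and 2 changed direction: Txnrd1 to 0.872 with the B cell-like profile subtracted, and Prdx1 to 0.926 with clusters weighed equally. The value of 0.926 rests on clusters with few barcodes of one library. The subtraction left 0 of 2 genes at 1.5-fold or more in place of 4 of 7 (3 to 6 under the other alternatives, 3 of 5 with clusters weighed equally), since the others had no value left; the B cell-like barcodes are few, 87 and 43. Scaling by the median of ratios put 7 listed genes other than the 10 lower by 1.5-fold in place of 4. Over the alternatives that gave a value, the ratio of Aox1 ranged from 8.15 to 13.1, of Gclc from 2.16 to 3.87, of Gclm from 3.20 to 4.41 and of Hmox1 from 1.0001 to 1.32. The share of barcodes with at least 2 of the genes followed depth: 24.1% in scramble and 47.5% in shBicd2 without thinning, 3.54% and 12.1% at 500 UMIs, and 3.58% and 15.1% without Hmox1. It was higher in shBicd2 in each of these. Depth limits Nqo1, G6pdx and Slc7a11 in all classes.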

Other observations

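Genes with the pattern most like that of the 10 were sought as those with a higher level in main-population barcodes that held at least 2 of the 10 than in barcodes that held none, within each library, ranked by the lower of the 2 ratios over 4305 genes. The leading 10 were Nsun2, Trak1, Wdr61, Mtg2, Sult5a1, Zbtb5, Taf4, Map4, Psmd12 and Tlcd1. Their lower ratio lay between 1.70 and 1.95, and for 8 of them the interval of at least 1 library held 1. Being the highest of many ranked on these ratios, they are a description with no test. None of these leading 10 belongs to the lists of the NRF2 and glutathione pathway used above. The listed gene Abcc2 followed further down the ranking. Its ratio was 1.67 (1.05 to 2.59) in scramble and 2.07 (1.49 to 2.90) in shBicd2.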
